A study of Mus musculus with 16 samples.

Results

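Polycomb repressive complex 1 (PRC1) subunit genes were examined in the CJ9 line of mouse embryonic stem cells, which were either arid4b-delta (labelled arid4b∆, a deletion in Arid4b) or wild type (WT). The Arid4b protein belongs to the Sin3 histone deacetylase complex, a corepressor that removes acetyl groups from histones. Cells of both genotypes had been directed to endoderm or mesoderm for 5 days and fixed for 8 min, and H3K4me3, H3K27me3 and H3K27ac were mapped by ChIP-seq. The groups were arid4b-delta endoderm, WT endoderm, arid4b-delta mesoderm and WT mesoderm, with 1 library per mark in each, so the 12 peak lists have no replicates, no difference was tested and no error can be given. The deleted stretch of Arid4b is not given in the labels, nor whether the line is a clone or how the cells were directed to either lineage. The 9 genes are Ring1, Rnf2, Bmi1, Pcgf2, Pcgf1, Kdm2b, Cbx2, Cbx7 and Cbx8, taken by name from 21887 protein-coding genes of the RefSeq table of GRCm38.p6 (mm10). A promoter peak is a called peak within 1 kb of either annotated gene end, and all peaks over a gene or the 20 kb on either side of it were collected. That gave 309 distinct peaks, 111 of them promoter peaks. Each peak's fold enrichment over background was computed by the authors, depends on the library, and is printed here only to describe a peak within its list. Its percentile is its rank by fold within that list.

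PRC1 is a repressor built around a RING-type ubiquitin ligase, Ring1 or Rnf2, which places ubiquitin on histone H2A, joined to a PCGF protein such as Bmi1, Pcgf2 or Pcgf1. Canonical PRC1 carries a CBX protein (Cbx2, Cbx7 or Cbx8 here), whose chromodomain binds H3K27me3, the mark laid down by PRC2. Variant PRC1 lacks a CBX protein, and in the form with Pcgf1 the protein Kdm2b brings it to unmethylated CpG islands. In mouse embryonic stem cells Cbx7 is the main CBX protein, while Cbx2 and Cbx8 are known to be repressed there and to come up on differentiation. H3K4me3 marks active and poised promoters, H3K27ac active promoters and enhancers, and the joint presence of H3K4me3 and H3K27me3 is called bivalent.

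The libraries differed in ways that touch the results. The lists held 6150 to 35884 peaks, the shortest being WT mesoderm H3K27me3, and their read depth is unknown. In each mark and lineage the arid4b-delta list covered more of the genome, and the ratio of covered length in arid4b-delta to WT was 1.51 in endoderm and 2.45 in mesoderm for H3K27me3, and 2.13 and 1.7 for H3K27ac. Of 6 mesoderm markers (T, Mesp1, Tbx6, Kdr, Pdgfra and Foxc1), 0 had promoter H3K27ac in arid4b-delta mesoderm and 4 in WT mesoderm, with 0 in both endoderm libraries. Of 6 endoderm markers (Sox17, Foxa2, Gata4, Gata6, Cxcr4 and Epcam), Epcam alone had promoter H3K27ac in every library, endoderm included, so the endoderm label was not borne out by acetylation of the other 5. Of the 4 pluripotency markers Pou5f1, Nanog, Sox2 and Utf1, 3 were acetylated in arid4b-delta endoderm, 4 in WT endoderm, 4 in arid4b-delta mesoderm and 2 in WT mesoderm.

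Acetylation was called at more of these promoters in WT mesoderm than in the other 3 cell populations. H3K27ac promoter peaks were found at 4 of the 9 genes in arid4b-delta endoderm (26.4% of all genes), 5 in WT endoderm (26.6%), 5 in arid4b-delta mesoderm (31.5%) and 8 in WT mesoderm (29.6%). H3K4me3 was at the promoters of 9 genes in arid4b-delta endoderm (58.6% of all genes), 8 in WT endoderm (53.3%), 9 in arid4b-delta mesoderm (59.7%) and 8 in WT mesoderm (55.9%), the missing gene being Cbx7 in both WT libraries. H3K27me3 was at Bmi1, Cbx2 and Cbx8 in arid4b-delta endoderm (17.2% of all genes), WT endoderm (14.4%) and arid4b-delta mesoderm (16.3%), and at Bmi1 and Cbx8 in WT mesoderm (9.34%). Ring1, Rnf2, Pcgf2 and Kdm2b had the same promoter calls in all 12 lists, H3K4me3 and H3K27ac without H3K27me3. Bmi1 and Cbx8 shared another pattern, H3K4me3 and H3K27me3 in all 4 cell populations with H3K27ac in WT mesoderm alone. All 3 marks together, found at 0.827% of all promoters in WT mesoderm, were at both genes there. The WT mesoderm H3K27me3 list runs down to -log10 q 0.307. Its peak near the Bmi1 start was weak (-log10 q 0.844, percentile 40.3), and those near the Cbx8 start had 1.05 and 1.43.

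**Figure D1:**
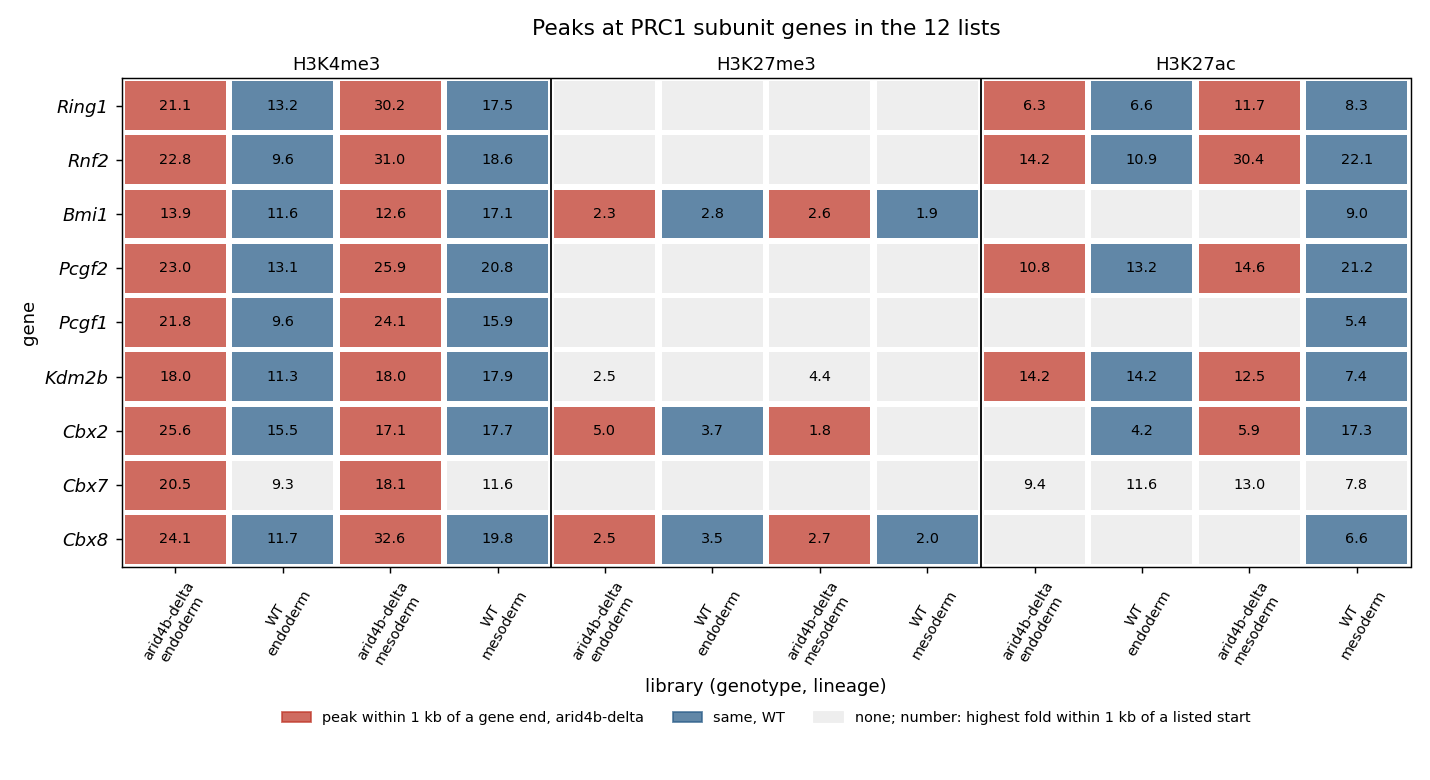
Promoter calls at the 9 genes (rows) in the 12 peak lists (columns, by mark, lineage and genotype). A coloured tile is a peak within 1 kb of a gene end, red in arid4b-delta and blue in WT, a grey tile has none, and the number is the highest fold enrichment of any peak within 1 kb of a listed transcription start. H3K27ac fills 8 tiles in WT mesoderm and 5 in arid4b-delta mesoderm, and Cbx7 shows acetylated starts under grey tiles because its start lies away from its gene ends.

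Between genotypes, promoter calls differed at Bmi1, Pcgf1 and Cbx8 in mesoderm H3K27ac, at Cbx2 in both H3K27 marks and at Cbx7 in H3K4me3. In mesoderm H3K27ac, 0 were marked in arid4b-delta only (5.62% of all genes) and 3 only in WT, Bmi1, Pcgf1 and Cbx8 (3.71% of all genes). Counted among promoters that carried the mark in WT, 3 of 8 lacked it in arid4b-delta mesoderm, against 12.5% of all 6479 acetylated WT promoters. For endoderm H3K27ac the same count was 1 of 5, against 17.6%. Of promoters marked in arid4b-delta, 1 of 3 lacked mesoderm H3K27me3 in WT, against 47.2%. With H3K4me3, 1 of 9 lacked it in WT in each lineage, against 9.17% in endoderm and 6.57% in mesoderm. In endoderm H3K27ac, 0 were in arid4b-delta only (4.49% of all genes) and 1, Cbx2, in WT only (4.7%). In H3K4me3, 1 gene, Cbx7, was in arid4b-delta only in endoderm (5.37% of all genes) and in mesoderm (3.92%), and 0 were in WT only (0.101% and 0.119%). In H3K27me3, 0 endoderm genes were in arid4b-delta only (4.89%) and 0 were called in WT only (2.05%), and in mesoderm 1, Cbx2, was in arid4b-delta only (7.68%) and 0 only in WT (0.726%). With 9 genes, a single gene is already above each of these shares of all genes, so the counts of 1 say nothing about the set. In mesoderm lists matched in length, where the longer list keeps its peaks of highest fold, Cbx2 joined these 3 genes (4 of 9 in WT only, 7.43% of all genes). The WT list was the shorter and was kept whole, so this matching could only remove arid4b-delta peaks. Where at least 500 bp of the window had to be covered, the count in WT only was 1, and that gene was Ring1. With peaks of at least 500 bp the genes were Ring1 and Cbx2, so Bmi1, Pcgf1 and Cbx8 were lost under both. The calls at Bmi1, Pcgf1 and Cbx8 rest on peaks of 206 to 291 bp.

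The catalytic subunits carried active promoters without H3K27me3 in every cell population. Ring1 (gene 19763, chromosome 17, 34020792 to 34024680) encodes RING1A and starts at its upper end. The highest fold enrichment of its H3K4me3 peak at the start was 21.1 in arid4b-delta endoderm, 13.2 in WT endoderm, 30.2 in arid4b-delta mesoderm and 17.5 in WT mesoderm. Its H3K27ac was 6.28, 6.61, 11.7 and 8.32 in the same order. Ring1 was thus called in all 8 lists of active marks, and had no H3K27me3 within 20 kb of its start. The nearest H3K27me3 peaks began 21758 bp away in arid4b-delta endoderm, 24494 bp in WT endoderm, 22476 bp in arid4b-delta mesoderm and 24525 bp in WT mesoderm, and those of arid4b-delta alone reached into the 20 kb flank of the far gene end. Rnf2 (gene 19821, chromosome 1, 151469398 to 151500991) encodes RING1B, the main H2A ubiquitin ligase of embryonic stem cells. Its H3K4me3 fold at the start was 22.8 in arid4b-delta endoderm, 9.64 in WT endoderm, 31.01 in arid4b-delta mesoderm and 18.6 in WT mesoderm. Its H3K27ac fold was 14.2, 10.9, 30.4 and 22.1 in that order. No H3K27me3 peak lay over Rnf2 or its 20 kb flanks in any of the 4 lists.

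The PCGF genes fell into separate classes, with Bmi1 bivalent, Pcgf2 active and Pcgf1 marked by H3K4me3 with acetylation in a single list. Bmi1 (gene 12151, chromosome 2, 18677018 to 18686629) encodes PCGF4, a canonical PRC1 subunit that also represses the Ink4a-Arf locus. Its start had H3K4me3 with fold 13.9 in arid4b-delta endoderm, 11.6 in WT endoderm, 12.6 in arid4b-delta mesoderm and 17.1 in WT mesoderm. The H3K27ac peak at the start was called in WT mesoderm alone (18677061 to 18677351, fold 9.03, percentile 66.5 of its list), 43 to 333 bp downstream of the start. The nearest arid4b-delta mesoderm H3K27ac peak lay 4084 bp upstream, at the start of the neighbouring gene Commd3, where WT endoderm and WT mesoderm also had a peak and arid4b-delta endoderm had none. The promoter of Bmi1 is printed because it is one of the starts where the acetylation call differed between the genotypes. It is given 5′ to 3′ on the plus strand of GRCm38.p6, chr2:18676768-18677067, from RefSeq, and here and in the other promoters printed the capitals mark CACGTG (an E-box), TGACGT or GGGCGG (a GC box) on either strand, with overlapping matches run together.
Bmi1: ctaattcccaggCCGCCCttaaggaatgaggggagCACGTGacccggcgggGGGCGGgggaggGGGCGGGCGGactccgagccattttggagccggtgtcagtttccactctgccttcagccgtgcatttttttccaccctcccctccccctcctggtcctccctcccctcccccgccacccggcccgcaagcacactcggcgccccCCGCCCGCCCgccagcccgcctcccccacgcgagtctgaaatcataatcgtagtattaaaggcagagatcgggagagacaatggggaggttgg

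The H3K27me3 domain over Bmi1 covered less in WT mesoderm than in the other 3 libraries. Called H3K27me3 covered 29.9 kb of Bmi1 and its flanks in arid4b-delta endoderm and 27.2 kb in WT endoderm, and 30.03 kb in arid4b-delta mesoderm and 10.2 kb in WT mesoderm. In arid4b-delta mesoderm a single peak of 28556 bp (18674056 to 18702611) ran from upstream of the start, over the start and past Bmi1 into Spag6. In both endoderm lists the domain left a gap over the start, and its longest peak was 24822 bp in arid4b-delta and 16130 bp in WT. In WT mesoderm 6 peaks were called, the longest of 3043 bp, and the first of them began 208 bp downstream of the start. Their -log10 q ran from 0.844, at the first of them, to 1.41. The difference of 19.8 kb in mesoderm was reached or passed at 0.201% of all genes. That share counts every gene, those without any H3K27me3 peak included, and the difference is in kb, not scaled to the lists. Over the whole genome the arid4b-delta mesoderm H3K27me3 list covered 2.45 times the length of the WT list. Whether Bmi1 differed by more than the lists did was not tested. The difference was also 19.8 kb in lists matched in length and 26.8 kb among the upper 50% of peaks by fold. WT mesoderm was also the shortest H3K27me3 list, and what that length contributes was not tested.

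**Figure D2:**
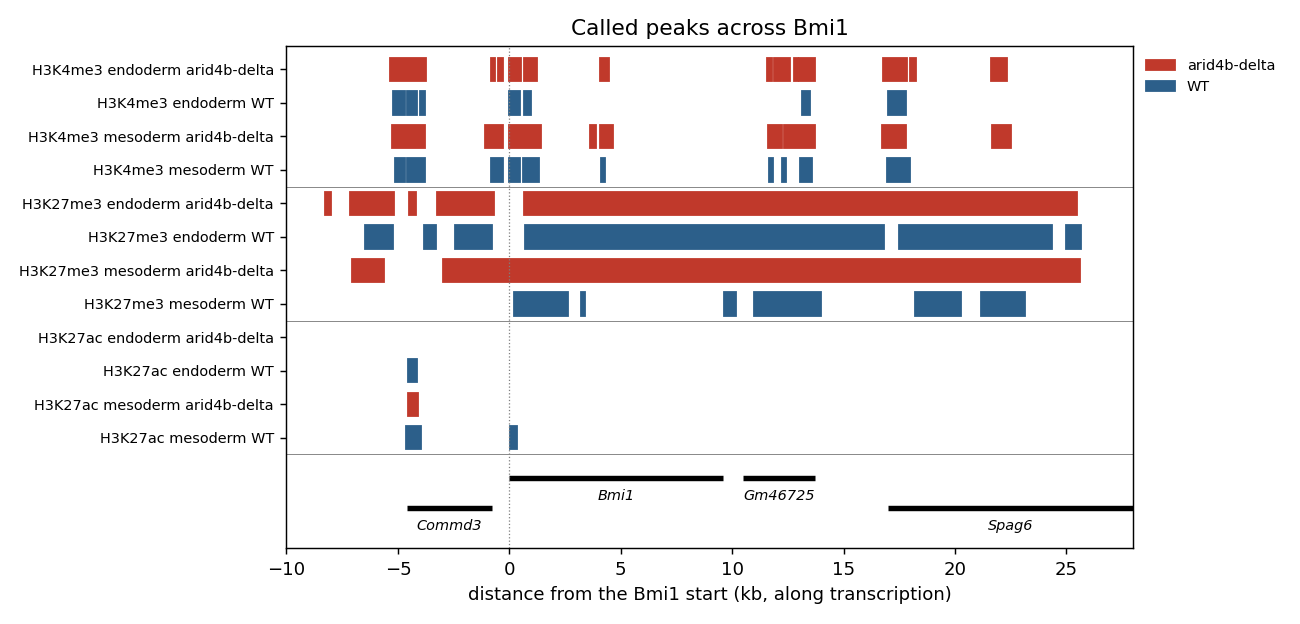
Called peaks across Bmi1 in the 12 lists (rows), by distance from the Bmi1 start in kb, with arid4b-delta in red, WT in blue and gene spans as black bars. The arid4b-delta mesoderm H3K27me3 domain is a single bar of 28556 bp that covers the start, WT mesoderm shows 6 separate pieces, and the only H3K27ac bar at the start is that of WT mesoderm.

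Pcgf2 (gene 22658, chromosome 11, 97688821 to 97702434) encodes MEL18, the closest relative of BMI1. Its RefSeq start, at 97699648, lies 2786 bp inside the annotated gene end, so its promoter calls rest on peaks at the gene end, close to the start of the proteasome gene Psmb3, and not on those at its own start. Within 1 kb of the RefSeq start, H3K4me3 reached fold 23.0 in arid4b-delta endoderm, 13.1 in WT endoderm, 25.9 in arid4b-delta mesoderm and 20.8 in WT mesoderm. H3K27ac there reached 10.8, 13.3, 14.6 and 21.2 in the same order. Peaks of both active marks were therefore called at the start in all 8 lists, and no H3K27me3 peak was called in the gene or its flanks. The promoter is shown as the active counterpart of Bmi1, on the minus strand, chr11:97699599-97699898.
Pcgf2: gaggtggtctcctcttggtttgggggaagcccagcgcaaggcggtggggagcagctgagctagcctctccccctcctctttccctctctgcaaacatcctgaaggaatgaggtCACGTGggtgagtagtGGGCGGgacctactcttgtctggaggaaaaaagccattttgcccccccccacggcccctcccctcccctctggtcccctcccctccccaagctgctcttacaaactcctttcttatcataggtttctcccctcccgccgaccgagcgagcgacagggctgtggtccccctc

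Pcgf1 (gene 69837, chromosome 6, 83077552 to 83080855) encodes NSPC1, the PCGF protein of the variant complex that holds Kdm2b. H3K4me3 at its start had fold 21.8 in arid4b-delta endoderm, 9.59 in WT endoderm, 24.1 in arid4b-delta mesoderm and 15.9 in WT mesoderm, each peak 1445 to 1605 bp long. H3K27ac was called in WT mesoderm alone, as a 206 bp peak (83078398 to 83078603, fold 5.39, percentile 25.1 of its list). No H3K27ac peak was called within 20 kb of the gene in the other 3 lists. The Pcgf1 promoter had no H3K27me3, but the mark lay on both sides, around the homeobox genes Tlx2 and Lbx2, and covered 14.5 kb of the region in arid4b-delta endoderm, 8.96 kb in WT endoderm, 11.51 kb in arid4b-delta mesoderm and 4.31 kb in WT mesoderm. In arid4b-delta endoderm an H3K27me3 peak of low fold (83073789 to 83075891, percentile 1.37 of its list) lay upstream of the start, outside the 1 kb window.

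Kdm2b had an active upstream promoter in every cell population and an internal promoter where the H3K27 marks differed. Kdm2b (gene 30841, chromosome 5, 122870664 to 122989270) encodes an H3K36 demethylase with a CXXC zinc finger that binds unmethylated CpG, and transcripts from its internal promoter lack the demethylase domain. RefSeq lists 4 starts, 2 near the upper gene end (122988507 and 122989099) and 2 internal ones deep in the gene (122900350 and 122900367). At the upstream starts the H3K4me3 fold was 17.6 in arid4b-delta endoderm, 9.54 in WT endoderm, 15.6 in arid4b-delta mesoderm and 12.5 in WT mesoderm, and the highest H3K27ac fold was 14.2, 14.2, 12.5 and 7.44. At the internal starts the nearest H3K4me3 peak had fold 18.03, 11.3, 18.03 and 17.9 in the same order. H3K4me3 was hence at both promoters in all 4 lists, and H3K27ac at the upstream one in all 4.

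H3K27me3 was called at the internal Kdm2b promoter in both arid4b-delta lists and in neither WT list. In arid4b-delta endoderm the peak was 540 bp long (122899673 to 122900212, fold 2.49, percentile 66.0). In arid4b-delta mesoderm it was 938 bp long (122899341 to 122900278, fold 4.37, percentile 91.9). The nearest WT peak was 352953 bp away in endoderm and 580242 bp away in mesoderm. Of 21263 listed starts of protein-coding genes, 4.15% had H3K27me3 within 1 kb in arid4b-delta only in endoderm and 6.65% in mesoderm, and of the 10 listed starts of the PRC1 genes these 2 did, which lie 17 bp apart and count as a single promoter. H3K27ac went the other way, with a 160 bp peak at the internal starts in WT mesoderm (122900495 to 122900654, fold 6.54, percentile 43.2) and none in arid4b-delta endoderm, WT endoderm or arid4b-delta mesoderm. Over the whole gene and its flanks H3K27ac covered 1.55 kb in arid4b-delta mesoderm and 2.88 kb in WT mesoderm. That difference was matched or passed in that direction at 0.407% of all genes, while 22.0% of all genes had longer cover in WT. It is in kb and not scaled to gene length, and Kdm2b spans 118607 bp, which leaves more room for a difference than a short gene has. Among the upper 50% of peaks by fold the cover was 1.1 kb in arid4b-delta mesoderm and 1.34 kb in WT mesoderm, a difference matched or passed at 7.95% of all genes. The internal starts thus carried H3K4me3 with H3K27me3 in arid4b-delta mesoderm, and H3K4me3 with H3K27ac in WT mesoderm. These starts lie outside the window at the gene ends, and were looked at after the peaks had been seen.

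Both promoters of Kdm2b are printed because the H3K27me3 call was made at the internal one and not the upstream one. They are on the minus strand, the internal one at chr5:122900318-122900617 and the upstream one at chr5:122989050-122989349. The internal promoter holds 47 CpG dinucleotides and the upstream one 28, against a median of 13 over all 21263 promoters.
Kdm2b internal: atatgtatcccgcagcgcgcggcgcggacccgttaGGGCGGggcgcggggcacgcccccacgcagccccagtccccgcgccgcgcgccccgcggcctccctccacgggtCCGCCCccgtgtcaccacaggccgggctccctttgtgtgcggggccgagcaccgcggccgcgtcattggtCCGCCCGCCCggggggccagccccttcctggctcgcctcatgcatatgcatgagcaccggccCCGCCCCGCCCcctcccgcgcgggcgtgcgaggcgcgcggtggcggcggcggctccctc
Kdm2b upstream: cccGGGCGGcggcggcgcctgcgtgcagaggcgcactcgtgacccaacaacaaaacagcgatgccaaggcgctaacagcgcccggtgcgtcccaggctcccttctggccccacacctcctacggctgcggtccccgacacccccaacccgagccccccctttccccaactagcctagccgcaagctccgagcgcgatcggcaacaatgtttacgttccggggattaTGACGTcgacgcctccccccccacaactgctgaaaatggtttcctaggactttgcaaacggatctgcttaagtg

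**Figure D3:**
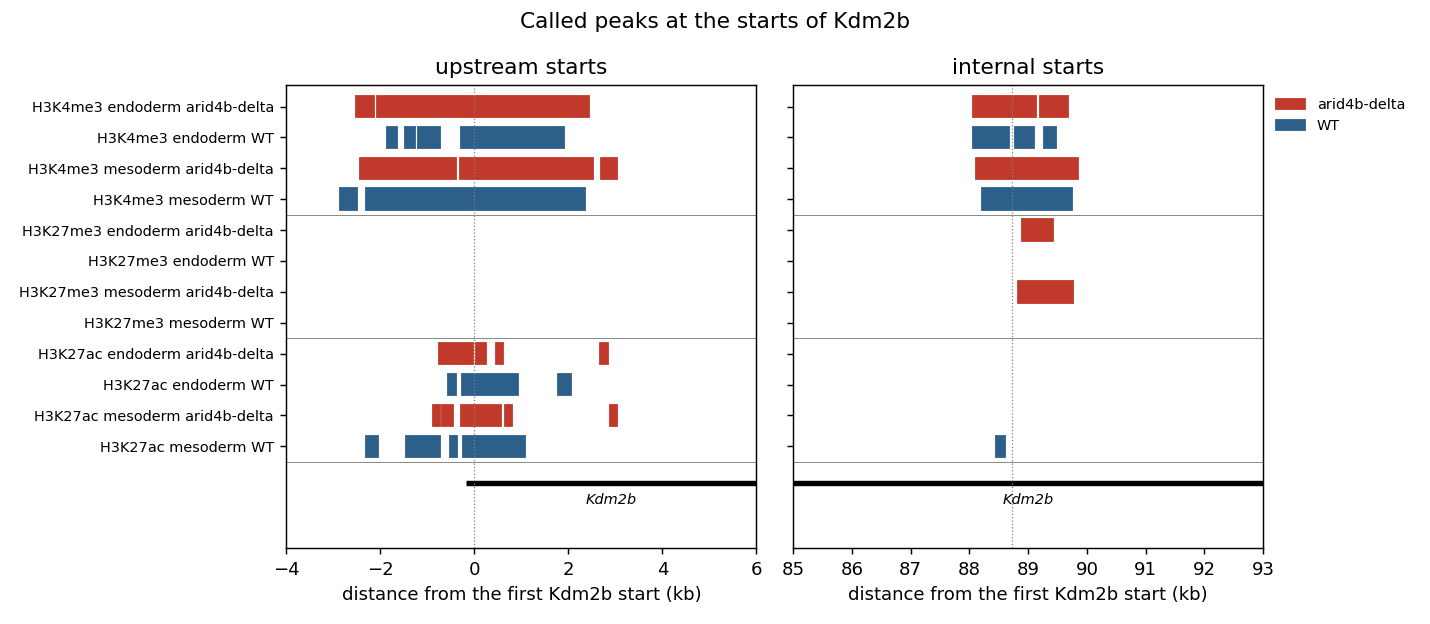
Called peaks around the upstream (left) and internal (right) starts of Kdm2b in the 12 lists (rows), by distance in kb from the first start along transcription, with arid4b-delta in red, WT in blue and dotted lines at a listed start. H3K27me3 bars of 540 and 938 bp appear at the internal starts in arid4b-delta alone, beside a 160 bp H3K27ac bar of WT mesoderm.

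Among the CBX genes, Cbx2 and Cbx8 had their longest acetylated stretch in WT mesoderm, while Cbx7 had its shortest there. Cbx2 (gene 12416, chromosome 11, 119023019 to 119031275) and Cbx8 (gene 30951, chromosome 11, 119036303 to 119040913) are neighbours, and each lies within the flank of the other, so their flanking peaks are partly the same. At the Cbx2 start, no H3K27ac peak was called in arid4b-delta endoderm, and WT endoderm had a 149 bp peak of fold 4.24 (percentile 5.34 of its list). Arid4b-delta mesoderm had peaks of 146 and 410 bp, the higher of fold 5.92 (percentile 29.7), and WT mesoderm a peak of 1151 bp (119022691 to 119023841) of fold 17.3 (percentile 90.1). Acetylation of Cbx2 was thus called in both mesoderm lists, longer in WT. The Cbx2 peaks of arid4b-delta mesoderm were not among the peaks kept when the lists were matched in length. The WT list, being the shorter (12496 peaks against 22747), was kept whole, so its peak could not be lost.

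H3K4me3 lay within 1 kb of the Cbx2 start in all lists, with fold 25.6 in arid4b-delta endoderm, 15.5 in WT endoderm, 17.2 in arid4b-delta mesoderm and 17.7 in WT mesoderm. H3K27me3 lay just upstream of it in arid4b-delta endoderm (1318 bp, fold 5.04), WT endoderm (1366 bp, fold 3.68) and arid4b-delta mesoderm (1049 bp, fold 1.78), and was not called in WT mesoderm, where the nearest peak was 2606 bp from a gene end. The arid4b-delta mesoderm peak was weak (percentile 19.6 of its list, -log10 q 0.904) and was lost in lists matched in length. The body of Cbx2 itself was free of H3K27me3 peaks in every list.

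At Cbx8 the start was bivalent in all 4 cell populations and acetylated in WT mesoderm alone. The WT mesoderm H3K27me3 peaks near the start were of -log10 q 1.05 and 1.43. H3K4me3 over the start had fold 24.1 in arid4b-delta endoderm, 11.7 in WT endoderm, 27.8 in arid4b-delta mesoderm and 19.8 in WT mesoderm. A separate arid4b-delta mesoderm peak just upstream of the start (119041129 to 119042024) had fold 32.6. The WT mesoderm H3K27ac peak was 208 bp long (119040716 to 119040923, fold 6.62, percentile 45.1) and covered the start. The nearest arid4b-delta mesoderm H3K27ac peak was the one at Cbx2, 12743 bp from the gene. H3K27me3 lay over the gene body and upstream of the start, and covered 29.1 kb of the gene and its flanks in arid4b-delta endoderm, 28.5 kb in WT endoderm, 26.9 kb in arid4b-delta mesoderm and 21.8 kb in WT mesoderm. In arid4b-delta endoderm the domain was a single peak of 31266 bp that ran over the start, and in the other 3 lists it had a gap at the start. In lists matched in length the mesoderm order turned, with 18.8 kb in arid4b-delta and 21.8 kb in WT. The Cbx8 promoter is printed as another start with acetylation in WT mesoderm alone, on the minus strand, chr11:119040864-119041163.
Cbx8: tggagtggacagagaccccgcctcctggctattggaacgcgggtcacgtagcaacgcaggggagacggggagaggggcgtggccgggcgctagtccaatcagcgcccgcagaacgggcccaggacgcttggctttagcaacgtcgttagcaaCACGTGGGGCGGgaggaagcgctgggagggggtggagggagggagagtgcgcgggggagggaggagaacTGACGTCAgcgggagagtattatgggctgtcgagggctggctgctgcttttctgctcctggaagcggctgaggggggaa

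**Figure D4:**
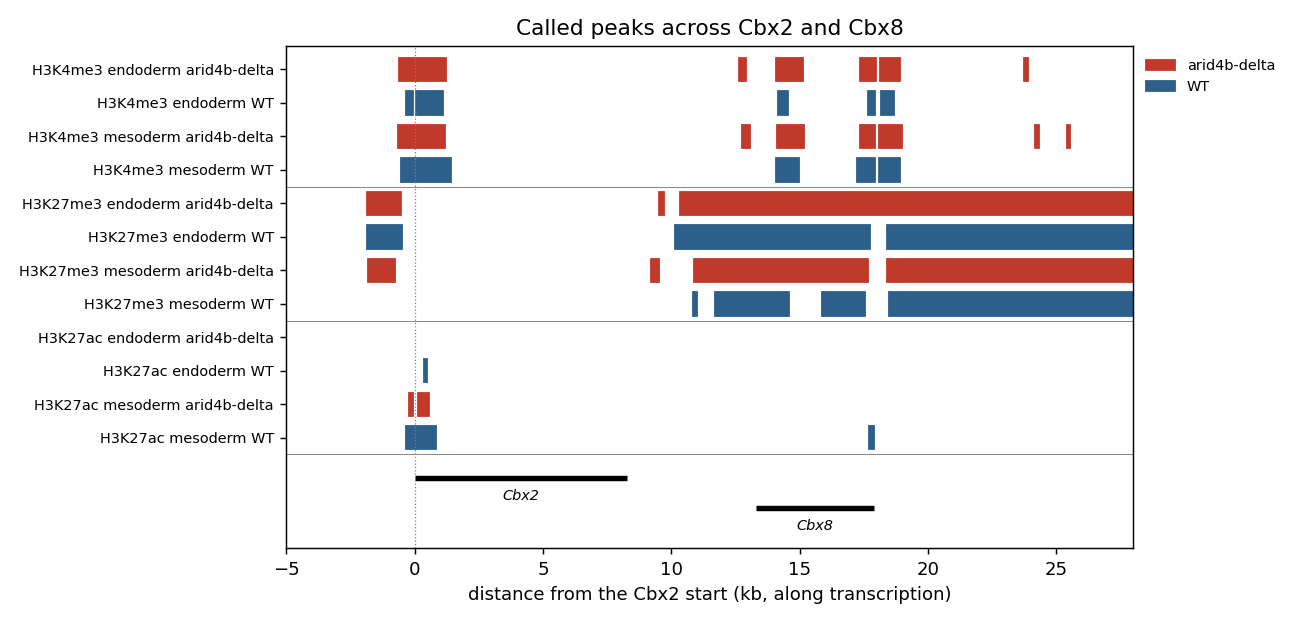
Called peaks across Cbx2 and Cbx8 in the 12 lists (rows), by distance from the Cbx2 start in kb, with arid4b-delta in red, WT in blue and gene spans as black bars. H3K27ac is longest at Cbx2 in WT mesoderm (1151 bp), which also has the only H3K27ac bar at Cbx8, while H3K27me3 lies over Cbx8 and the region beyond it in every list and leaves the body of Cbx2 free.

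Cbx7 had H3K4me3 and H3K27ac within 1 kb of its start in every cell population. Cbx7 (gene 52609, chromosome 15, 79915804 to 79971143) encodes the CBX protein that prevails in embryonic stem cells. The RefSeq start at 79932646 lies 16842 bp from the lower gene end and farther from the upper one. Within 1 kb of that start the highest H3K4me3 fold was 20.5 in arid4b-delta endoderm, 9.27 in WT endoderm, 18.1 in arid4b-delta mesoderm and 11.6 in WT mesoderm. The promoter call in arid4b-delta only therefore concerned the far gene end, where H3K4me3 peaks had fold 5.11 in arid4b-delta endoderm (79970747 to 79971139, percentile 17.3) and up to 5.53 in arid4b-delta mesoderm (79970153 to 79970569, percentile 25.6). At the RefSeq start H3K4me3 was called in both genotypes, and no H3K27me3 peak was called over Cbx7 or its flanks in any list.

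The extent of Cbx7 acetylation differed in mesoderm. H3K27ac covered 2.32 kb in 5 peaks in arid4b-delta endoderm and 2.66 kb in 5 peaks in WT endoderm. It covered 3.59 kb in 8 peaks in arid4b-delta mesoderm and 0.48 kb in 1 peak in WT mesoderm. The WT mesoderm peak (79933401 to 79933878, fold 7.77, percentile 57.3) lay 755 bp upstream of the start. The highest fold of a peak reaching within 1 kb of the start in the other libraries was 9.37 in arid4b-delta endoderm, 11.6 in WT endoderm and 13.04 in arid4b-delta mesoderm. WT mesoderm was therefore the library with the least acetylation called at Cbx7 and the most called at Cbx2 and Cbx8. Of all genes, 37.8% had longer H3K27ac cover in arid4b-delta mesoderm and 22.0% in WT mesoderm, in kb not scaled to gene length. The mesoderm difference of 3.11 kb at Cbx7 was reached or passed at 0.489% of all genes, and it was 1.84 kb in lists matched in length. The opposite difference at Cbx2, 0.56 kb in arid4b-delta mesoderm and 1.36 kb in WT mesoderm over the gene and flanks, was reached or passed at 1.44% of all genes. H3K27ac of the pluripotency and mesoderm markers moved with these differences (4 of 4 and 0 of 6 in arid4b-delta mesoderm, 2 of 4 and 4 of 6 in WT mesoderm), and their part in the result was not tested. In bulk chromatin, fewer cells with a mark and less of it per cell cannot be told apart.

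The Cbx7 promoter is given because every H3K4me3 and H3K27ac list had a peak within 1 kb of this start. Much of the H3K27ac lay farther upstream than the printed stretch, and the only WT mesoderm peak lay wholly outside it. The sequence is on the minus strand, chr15:79932597-79932896.
Cbx7: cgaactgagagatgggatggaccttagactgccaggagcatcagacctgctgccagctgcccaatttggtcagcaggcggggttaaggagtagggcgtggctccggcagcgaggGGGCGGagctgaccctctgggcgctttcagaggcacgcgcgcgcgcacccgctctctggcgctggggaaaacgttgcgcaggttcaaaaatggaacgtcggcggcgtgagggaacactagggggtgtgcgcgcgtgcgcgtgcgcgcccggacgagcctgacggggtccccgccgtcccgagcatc

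**Figure D5:**
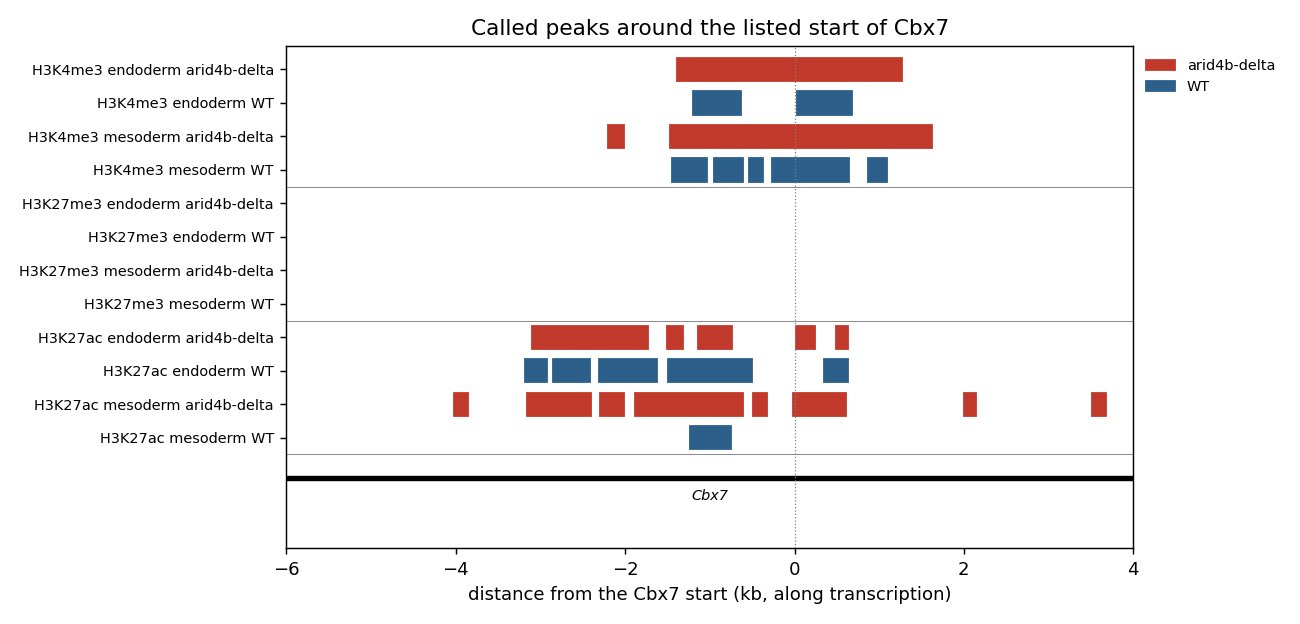
Called peaks within 6 kb upstream and 4 kb downstream of the RefSeq start of Cbx7 in the 12 lists (rows), by distance from the start in kb, with arid4b-delta in red and WT in blue. H3K27ac forms a cluster of bars in 3 lists and a single 478 bp bar in WT mesoderm, and no list has H3K27me3 here.

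The lineages were set side by side within each genotype. In arid4b-delta, 1 of the 9 promoters, Cbx2, was acetylated in mesoderm only (7.43% of all genes) and 0 in endoderm only (2.36%). In WT, 3, Bmi1, Pcgf1 and Cbx8, were acetylated in mesoderm only (6.36%) and 0 in endoderm only (3.39%). Bmi1, Pcgf1 and Cbx8 are the genes named above, and the WT mesoderm library is common to both comparisons. For H3K4me3 no promoter differed between lineages in either genotype, the background being 1.48% in mesoderm only and 0.338% in endoderm only in arid4b-delta, and 3.15% and 0.548% in WT. For H3K27me3, 0 promoters differed in arid4b-delta (2.37% in mesoderm only, 3.31% in endoderm only), and in WT 0 were in mesoderm only (1.01%) and Cbx2 in endoderm only (6.08%).

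The calls were also read at RefSeq starts, within 1 kb of each of the 10 starts listed for 7 of the genes, and set beside 21263 starts of protein-coding genes. H3K4me3 was at all 10 starts in every list, so 0 were in one genotype only, while 4.81% of all starts were in arid4b-delta only and 0.0705% only in WT in endoderm, and 3.46% and 0.108% in mesoderm. H3K27me3 was at 4 starts in arid4b-delta and 2 in WT in each lineage, and the difference was the internal pair of Kdm2b, with 0 starts in WT only (1.82% of all starts in endoderm, 0.56% in mesoderm). H3K27ac was at 6 starts in arid4b-delta endoderm and the same number in WT endoderm, with 0 in arid4b-delta only (4.17%) and 0 only in WT (4.6%). In mesoderm it was at 6 starts in arid4b-delta and at all 10 in WT, with 0 in arid4b-delta only (5.53%) and 4 only in WT (3.72%). Those 4 were Bmi1, Cbx8 and the internal pair of Kdm2b, which is a single promoter. Pcgf1 and Cbx2 are not among these starts.

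The promoters of these genes, Pcgf2 apart, held more CpG dinucleotides than the median promoter, which holds 13. RefSeq promoter sequences, 250 bases before to 50 after a start, matched 7 of the 9 genes and gave 10 promoters. Their GC content was 59.7 to 81.7%, against a median of 56.3% over all promoters. Pcgf2 had the fewest CpG dinucleotides (10, with an observed over expected ratio of 0.362 against a median of 0.567) and the internal Kdm2b promoters the most (47 and 49), against 37 at Ring1, 30 at Rnf2, 23 at Bmi1, 33 at Cbx7 and 24 at Cbx8. Ring1, Rnf2 and Cbx7 had more CpG dinucleotides than Bmi1 and Cbx8 and no H3K27me3 at their starts. The internal Kdm2b promoters, with the most, had H3K27me3 in both arid4b-delta lists, and Pcgf2, with the fewest, had none. Whether the number of CpG dinucleotides bears on the H3K27me3 calls was not tested. CACGTG was in the Bmi1, Pcgf2 and Cbx8 promoters and in 7.84% of all promoters. TGACGT was in those of Ring1, Cbx8 and the far upstream start of Kdm2b, against 8.49%, and GGGCGG in 9 of the 10, against 46.2%. The internal Kdm2b promoters overlap almost wholly and are counted separately here. All 10 are above the median in GC content, so the share over all promoters is not a like comparison for GGGCGG. Bmi1 and Cbx8, with the same calls in all 12 lists, share CACGTG with Pcgf2, whose calls differ, and in Cbx8 CACGTG runs directly into GGGCGG. Its pair of TGACGT matches is a single TGACGTCA, read once on each strand. A match of letters is not evidence of binding.

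Another 28 genes of PRC1 complexes were read in the same way, comprising further PCGF, CBX, PHC and RYBP-type subunits and the partners of the variant complexes. H3K4me3 promoter peaks were at 26 of the 28 in all 4 lists (53.3 to 59.7% of all genes), Scml2 and Usp7 being without at their gene ends. Their RefSeq starts lie 80225 and 18725 bp from a gene end, and H3K4me3 was at the Usp7 start in all 4 lists and at the Scml2 start in all but WT endoderm. H3K27ac was at 13 in arid4b-delta endoderm, 10 in WT endoderm, 14 in arid4b-delta mesoderm and 15 in WT mesoderm. The shares of all genes were 26.4, 26.6, 31.5 and 29.6% in that order. H3K27me3 was at 7, 3, 5 and 3 of the 28, beside 17.2, 14.4, 16.3 and 9.34% of all genes. In mesoderm H3K27ac, L3mbtl2 (fold 8.99) and E2f6 (7.72), subunits of the Pcgf6 complex, were in arid4b-delta only (5.62% of all genes). Yaf2 (9.18) and Max (4.5) were among those in WT only (3.71% of all genes).

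In endoderm H3K27ac, Pcgf3 (fold 6.98), Tfdp1 (3.4) and Auts2 (5.08) were in arid4b-delta only (4.49% of all genes) and none of the 28 in WT only (4.7%). In endoderm H3K27me3 was in arid4b-delta only (4.89% of all genes) at Phc2 (fold 6.18), Yaf2 (1.83), E2f6 (2.99), Mga (a 394 bp peak) and Auts2 (1.83). In WT only (2.05% of all genes) it was at Fbrs (2.42). In mesoderm H3K27me3 was in arid4b-delta only (7.68% of all genes) at E2f6 (3.82), Mga (1.27, percentile 2.58 of its list) and Auts2 (3.24). In WT only (0.726%) it was at Phc2 (2.45). E2f6, a repressor that recruits the Pcgf6 complex to germline genes, thus had H3K27me3 in both arid4b-delta lists, and in arid4b-delta mesoderm H3K27ac as well. The Mga peaks lay at a gene end 24725 bp from its RefSeq start and did not touch that start. By agreement of the 12 promoter calls, Bmi1 and Cbx8 matched each other, and Pcgf1 was matched by Max alone (12 of 12 equal). Ring1, Rnf2, Pcgf2 and Kdm2b were matched by 6 genes (12 of 12), among them Pcgf6, Phc1 and Rybp, the gene nearest to Cbx2 was Mga (10 of 12), and 7 genes, among them Phc3, Scml2 and Bcor, shared 10 of 12 calls with Cbx7. These are calls at gene ends. At RefSeq starts Cbx7 had H3K4me3 and H3K27ac in all lists and no H3K27me3, the calls of Ring1, Rnf2, Pcgf2, Pcgf6 and Phc1, and Mga had them too.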

How the data were processed

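ChIP-seq peak lists of CJ9 cells were used as the authors deposited them, 1 list per mark, lineage and genotype. Per the submitters' processing notes, Bowtie2, Picard and MACS2 were used on mm10; versions, settings and whether input was the control are not given in the sources used here. The deposited lists give for each peak a score, a fold enrichment (a ratio to background), a -log10 p-value and a -log10 q-value, all the authors' values, and a summit position. Peak names hold "rmdup". Read counts are not in the lists, so the depth is unknown and no interval can be given, and input libraries were not analysed here.

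Peaks were placed on protein-coding genes of the RefSeq table of GRCm38.p6, the same build as mm10, with Python 3.11.15, pandas 2.3.3 and numpy 2.4.6. An overlap of 1 bp counted. That table gives no exons or strand, so peaks were not assigned to exons or introns. Strand and starts came from the RefSeq promoter sequences, and Pcgf1 and Cbx2, which these lack, were given the gene end that carries H3K4me3. Covered length is the summed peak length within a gene and its 20 kb flanks, and was not scaled to gene length. The counting script was checked on simulated data. With 1 library per group nothing was tested, and counts were set beside the same share of all genes. All 9 genes were named, together with each of 28 other PRC1 genes marked in 1 genotype only, except a result that is not reported here. The genes, lists and markers were chosen with earlier results of these data known; motifs, RefSeq starts and covered-length comparisons were chosen after seeing these peaks.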

Additional observations from a re-analysis of the deposited data

Results flagged for a closer look

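Phc2, which encodes a polyhomeotic subunit of canonical PRC1, had promoter H3K27me3 in opposite genotypes in the lineages. In endoderm the peak was in arid4b-delta only (372 bp, fold 6.18), and in mesoderm it was in WT only (146 bp, fold 2.45). Both peaks lie just inside the outer edge of the 1 kb window at the same gene end (128654655), starting at 128655652 in endoderm and 128655625 in mesoderm, and the difference between lineages was not tested, since each group has 1 library.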

How the results depend on the processing

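There were 12 counts of PRC1 genes marked in 1 genotype only. All 12 stayed within 1.5 times of their value when only the gene end on the upstream side was read. That end is not always a transcription start. At Pcgf2 it lies 2786 bp from the RefSeq start, and at Cbx7 it lies more than 16842 bp away. Under the other alternatives 8 to 11 of the 12 stayed, and at RefSeq starts 8 did and 4 moved. A count can stay while the gene differs. Endoderm H3K27ac in WT only stayed 1 but was Ring1 and not Cbx2 with 500 bp covered and with peaks of at least 500 bp, and mesoderm H3K27me3 in arid4b-delta only stayed 1 but was Bmi1 and not Cbx2 in the upper 50%. Cbx7 H3K4me3 in arid4b-delta only (1 gene in each lineage) became 0 in both lineages among the upper 50% of peaks by fold, with peaks of at least 500 bp and at RefSeq starts, and 0 in endoderm where 500 bp of the window had to be covered. H3K27me3 in arid4b-delta only in endoderm (0) became 1 with a window of 2500 bp (Pcgf1) and 1 at RefSeq starts (Kdm2b), and in WT only (0) it became 1 (Cbx2) with a window of 500 bp or 500 bp covered. In mesoderm H3K27me3 in arid4b-delta only (1) became 0 in lists matched in length, with a window of 500 bp and with 500 bp covered, and 2 at RefSeq starts (Kdm2b and Cbx2). Endoderm H3K27ac in arid4b-delta only (0) became 2 in the upper 50% (Ring1 and Pcgf2) and 1 with peaks of at least 500 bp (Rnf2). In WT only (1) it became 2 in lists of equal length (Ring1 and Cbx2) and 0 in the upper 50%. Mesoderm H3K27ac in WT only (3) became 1 (Ring1) with 500 bp covered, and the genes were Ring1 and Cbx2 with peaks of at least 500 bp, Bmi1 and Cbx2 in the upper 50%, and Bmi1 and Cbx8 with a window of 500 bp. The causes were not tested. The covered H3K27ac difference at Cbx7 in mesoderm was 1.84 kb in lists of equal length and in the upper 50%, at Cbx2 it was -1.36 and -1.15 kb, and at Kdm2b -1.78 and -0.24 kb.

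No paired analysis was possible because each group has 1 library and the labels give no replicate numbers; leaving out a library leaves no group. The lists hold no signal outside called peaks, so a promoter without a peak is one without a call, not one shown to lack the mark.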
